A study of Mus musculus with 42 samples.

Results

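Proliferating microglia from APP/PS1 mice were compared between 12 and 4 months of age, with 4 libraries at each age out of 42 libraries in the series. A gene entered the comparison where its mean normalised value, on a log2 scale, was at least 7 in either age group, which held for 12785 of 19151 genes. Of these, 861 reached that level only at 12 months and 965 only at 4 months. For those genes, entry depended on the same values that were then compared. Among the genes named below, they include Dkk2, Foxm1 and Gh (12 months only) and Cdc6, Rrm2, Unc13c and Megf10 (4 months only).

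APP/PS1 mice carry transgenes for mutant amyloid precursor protein and mutant presenilin 1 and deposit amyloid-β plaques with age. In this line the transgenes are driven by the prion protein promoter, so that the amyloid comes mainly from neurons. Cells from brains of male mice on the C57BL/6 background were fixed, stained and sorted as positive for CD11b, CD45 and the nuclear proliferation antigen Ki67, and each library was made from a small pool of sorted cells. Beside the 4-month and 12-month APP/PS1 Ki67+ groups, the tests below drew on WT littermate Ki67+ cells at 4 months (5 libraries) and 12 months (4 libraries). They also drew on APP/PS1 Ki67- cells at 4 and 12 months (4 libraries each). APP/PS1 Ki67+ cells at 6 months (2 libraries) and WT Ki67- cells at 4 months (5 libraries) were described without a test of their own. All were isolated in the same way. These and the remaining groups, of 4, 6 and 12 months, entered the fit through its estimate of spread. Whether a library came from 1 mouse, and whether Ki67+ and Ki67- libraries came from the same mice, was not given in the sources used here. The p-values therefore measure spread between libraries, pooled over the 42 libraries of all 12 groups.

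Microglia are the resident macrophages of the brain. Under resting conditions they carry a homeostatic programme with the purinergic receptor P2ry12 and the surface protein Tmem119, and they renew themselves locally by division. Near amyloid they are known to pass into a disease-associated (DAM) state, in which lipid, lysosomal and phagocytic genes downstream of the receptor pair Trem2 and Tyrobp come up and homeostatic genes go down.

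The sorted antigen and cell type markers were compared first. Mki67 was compared between the ages of Ki67+ cells alone, which does not check the Ki67 label. Mki67 (chr7:135689784-135716361, GRCm38), which encodes the Ki67 antigen, had values of 8.67, 8.36, 9.37 and 8.95 in the 4-month libraries and 8.41, 8.07, 9.03 and 8.85 in the 12-month libraries. The groups overlapped, and the difference of -0.25 ± 0.39 (SE; log2, here and below) did not pass the test (adjusted p = 0.747). The means of 14 microglial identity genes were high at both ages, from 13.29 to 13.39 at 4 months and from 13.07 to 13.33 at 12 months, with overlap. Of these 14 genes, 2 rose (14.3%, Trem2 and Irf8) and 2 fell (14.3%, P2ry12 and Tmem119), against 3.39% and 3.24% of all genes tested. Lower values at 12 months without overlap were found for 7 of the 14. Of all genes tested, 17.1% did not overlap, in either direction. The median difference of the 14 genes was -0.24. Astrocyte markers were also present. The mean of 12 astrocyte markers was 11.07 to 11.51 at 4 months and 10.58 to 10.97 at 12 months in APP/PS1 Ki67+ libraries, against 8.32 to 8.71 and 7.78 to 8.57 in APP/PS1 Ki67- libraries. Astrocyte markers therefore lay higher in the Ki67+ than in the Ki67- libraries. Their means were lower at 12 than at 4 months in both, without overlap in the Ki67+ libraries and with overlap in the Ki67- libraries. The median change over the 12 markers was -0.65 in Ki67+ and -0.59 in Ki67- cells, and in Ki67- cells 2 markers passed the test as lower. The part of this RNA in the results below was not tested. Means of neuronal, oligodendrocyte, endothelial, border macrophage and peripheral leukocyte markers lay between 6.98 and 8.91 in the 8 libraries and overlapped between the ages. In such bulk libraries, fewer cells of a type and less RNA per cell cannot be told apart.

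Gene expression changed in both directions with age. At a Benjamini-Hochberg adjusted p below 0.05 in limma (genes past it are termed called), 434 genes were higher at 12 months (3.39% of those tested) and 414 were lower (3.24%). The median difference was 1.11 over the higher genes, -1.07 over the lower genes and -0.0258 over all genes tested. The called differences ran from 2.73 for Cst7 to -2 for Slco4a1, and none was smaller than 0.61 in size. Values of the 4 and 4 libraries did not overlap for 2188 genes (17.1%), among them 394 of the higher and 362 of the lower genes. Leaving out 12-month replicate 2, the higher count was 241 and the lower count 170. Without 12-month replicate 4 they were 254 and 161, without 4-month replicate 3 they were 270 and 257, and without 12-month replicate 1 the lower count was 246.

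**Figure D1:**
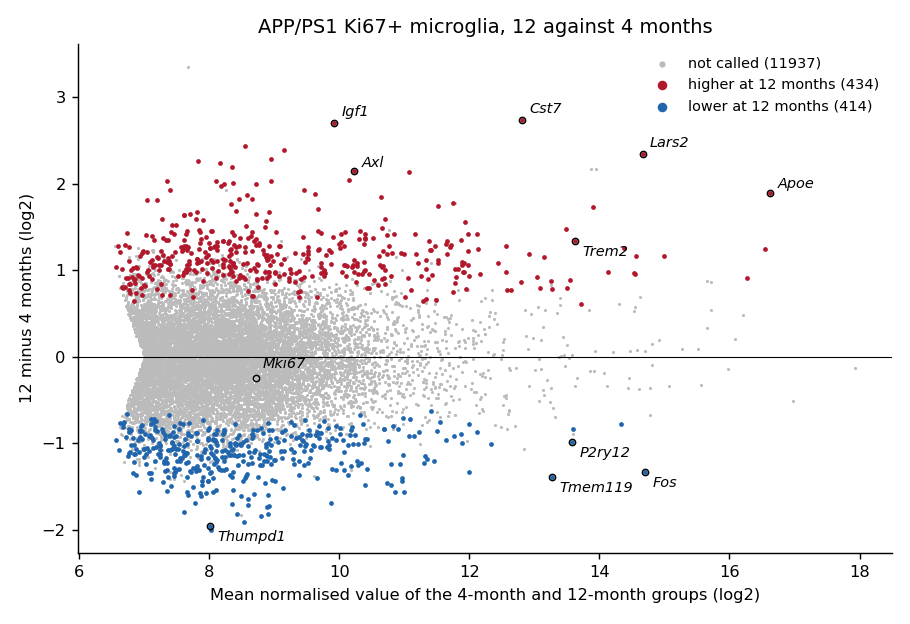
Each point is a gene, placed by its mean normalised value over both age groups (x axis, log2) and its difference between 12 and 4 months in APP/PS1 Ki67+ microglia (y axis, log2), with the 434 higher genes in red, the 414 lower genes in blue and genes not called in grey. Cst7 and Igf1 lie highest among the called genes, Apoe and Lars2 moved at high expression, and Mki67 lies close to 0.

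DAM genes rose together. Of 48 genes on the DAM list, 31 rose (64.6%, against 3.39% of all genes tested) and none fell. Of the 48, 47 had a positive difference, and their median difference was 1.22. The libraries' means over the list were 11.33, 10.83, 10.86 and 11.07 at 4 months and 12.24, 12.26, 12.33 and 12.31 at 12 months. The ages were thus separated by more than the whole range within either group, and the 12-month libraries lay close together. Of the 31 genes, 23 stayed called in each of the 8 fits that left out 1 library.

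Cst7 (chr2:150570415-150578944) encodes cystatin F, an inhibitor of lysosomal cysteine proteases. Its values were 12.98, 11.12, 10.97 and 10.69 at 4 months and 14.10, 14.30, 14.59 and 13.70 at 12 months. The 4-month replicate 1 stood nearest to the older group, and no value overlapped. The difference of 2.73 ± 0.51 (adjusted p = 0.00147) corresponded to a 6.65-fold higher level. Igf1 (chr10:87858265-87937042), a growth factor, rose from 9.37, 8.77, 8.75 and 7.38 to 11.28, 11.78, 10.95 and 11.08, a 6.53-fold difference (2.71 ± 0.44, adjusted p = 0.000567). Lilrb4a (chr10:51490956-51496611), an inhibitory immunoglobulin-like receptor, had values of 7.30, 6.94, 7.69 and 9.29 at 4 months and 10.01, 10.17, 9.99 and 10.21 at 12 months. The older libraries were almost level for Lilrb4a, and the difference was 2.29 ± 0.32 (adjusted p = 0.000164).

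Receptors of the DAM programme moved with it. Trem2, the lipid-sensing receptor, had values of 13.21, 12.81, 13.03 and 12.78 at 4 months and 14.28, 14.25, 14.53 and 14.11 at 12 months (1.34 ± 0.22, adjusted p = 0.000567). Axl (chr7:25757273-25788705), a receptor tyrosine kinase for the uptake of dying cells, went from 9.19, 8.73, 9.43 and 9.27 to 11.05, 11.77, 10.87 and 11.52 (2.15 ± 0.32, adjusted p = 0.000186). Itgax, the integrin subunit CD11c, rose by 1.93 ± 0.38 (adjusted p = 0.00241). Trem2 and Axl were higher in each 12-month library than in any 4-month library, and so was Itgax.

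Secreted factors and other DAM members followed the same direction. Dkk2 (chr3:132085292-132180304), a secreted Wnt antagonist, was 6.88, 6.81, 6.79 and 6.68 at 4 months and 8.36, 8.32, 8.18 and 8.83 at 12 months, the lowest adjusted p of the comparison (1.64 ± 0.22, adjusted p = 0.000164, shared with other genes). The 4-month values of Dkk2 all lay below the filter of 7, so it entered the comparison through its 12-month values alone. Mamdc2 rose by 2.26 ± 0.33 (adjusted p = 0.000172), the membrane-bending protein gene Baiap2l2 by 1.44 ± 0.20 (adjusted p = 0.000164) and Lgals3bp, a secreted galectin-binding glycoprotein, by 1.77 ± 0.28 (adjusted p = 0.000391). Not every DAM gene passed. Clec7a, the β-glucan receptor dectin-1, had values of 11.01, 8.86, 9.91 and 10.35 at 4 months and 11.17, 11.26, 11.73 and 11.85 at 12 months (1.47 ± 0.49, adjusted p = 0.0657), and Spp1, osteopontin, ranged from 8.70 to 12.71 at 4 months and from 11.92 to 13.96 at 12 months (1.78 ± 0.72, adjusted p = 0.132). Clec7a and Spp1 were named after their values were seen, as well-known DAM genes outside the calls.

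**Figure D2:**
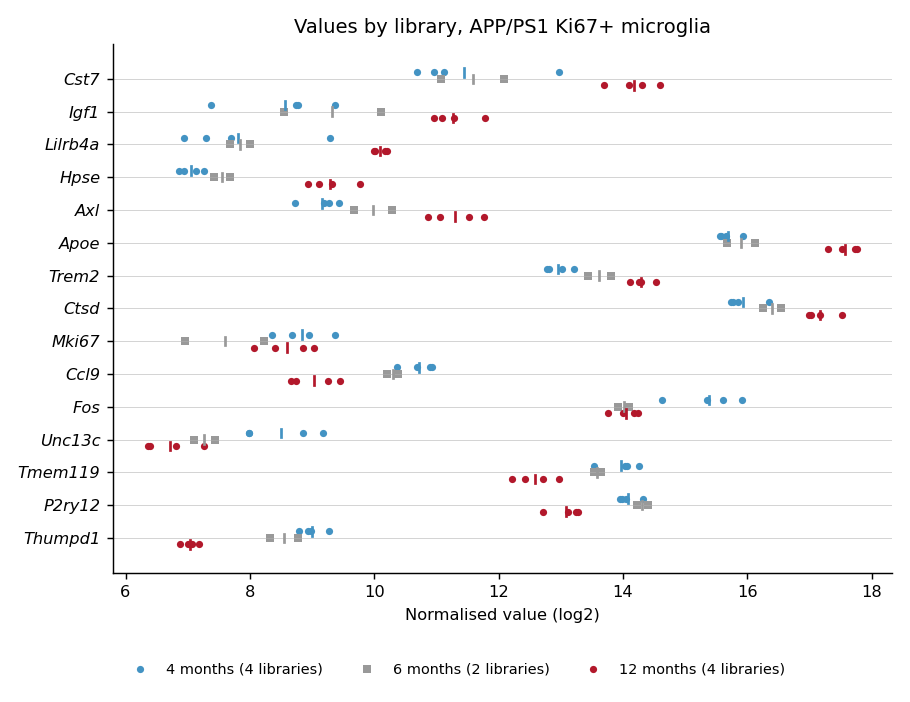
Normalised values (x axis, log2) of 15 genes in each APP/PS1 Ki67+ library, with 4-month libraries as blue circles, 6-month libraries as grey squares, 12-month libraries as red circles and group means as vertical ticks. The 4-month and 12-month values do not overlap for the genes shown other than Mki67.

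The homeostatic programme was lower at 12 months. Of 30 homeostatic genes, 9 fell (30%, against 3.24% of all genes tested) and none rose, and the median difference was -0.44. The list means were 12.88, 13.05, 13.15 and 13.05 at 4 months and 12.59, 12.43, 12.62 and 12.46 at 12 months, without overlap. Tmem119 went from 13.53, 14.26, 14.06 and 14.04 to 12.71, 12.21, 12.97 and 12.43, a 2.63-fold lower level (-1.39 ± 0.23, adjusted p = 0.000582). P2ry12, which guides microglial processes towards nucleotides, went from 13.98, 13.95, 14.33 and 14.04 to 13.28, 12.71, 13.24 and 13.11 (-0.99 ± 0.23, adjusted p = 0.0103). The gene overlaps Med12l, and the libraries do not mark strand. Selplg, the P-selectin ligand, fell by 0.83 ± 0.19 (adjusted p = 0.0079) and Glul, glutamine synthetase, by 1.01 ± 0.25 (adjusted p = 0.0143). Sall1, a transcription factor of microglial identity named here for that role, passed narrowly (-0.72 ± 0.22, adjusted p = 0.0483), and its call was lost in 7 of the 8 fits with a library left out (adjusted p up to 0.152). The myeloid factor Spi1 did not pass (-0.47 ± 0.21, adjusted p = 0.176), while the interferon regulatory factor Irf8 rose by 0.93 ± 0.23 (adjusted p = 0.0136). Glul is also abundant in astrocytes, whose markers were lower at 12 months (list median -0.65 over 12 markers, with 1 called in each direction). The part of astrocyte RNA in the homeostatic genes was not tested. Without 12-month replicate 2 or without 12-month replicate 4 the homeostatic list held 5 called genes. It held 5 with a spread weight for each group and 2 in a fit of only the 8 libraries, and P2ry12 had an adjusted p of 0.0501 without 12-month replicate 2.

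Lysosomal genes rose as a smaller share of their list. Of 60 lysosomal hydrolase and proton pump genes, 11 rose and 2 fell (median 0.24), and 7 of the 11 are also DAM genes, so the lists do not count separate genes. Ctsd, the aspartic protease cathepsin D, had values of 16.35, 15.74, 15.77 and 15.85 at 4 months and 17.17, 16.99, 17.51 and 17.02 at 12 months (1.25 ± 0.22, adjusted p = 0.000763). Npc2, which carries cholesterol out of the lysosome, went from 12.55, 12.02, 12.28 and 12.44 to 13.45, 13.63, 13.47 and 13.47 (1.18 ± 0.20, adjusted p = 0.000607). Ctsb and Ctsz, cysteine cathepsins, rose by 1.17 ± 0.22 (adjusted p = 0.00159) and 1.17 ± 0.21 (adjusted p = 0.00134), and Cd63, a membrane protein of late endosomes, by 1.15 ± 0.21 (adjusted p = 0.00157). Ctsd overlaps Gm49369, Ctsb overlaps Fdft1 and Ctsz overlaps Nelfcd in the annotation, so some of their reads may be shared.

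The genes that fell were Tfeb and Lgmn. Tfeb, a transcription factor that drives lysosomal genes, went from 8.41, 8.97, 9.54 and 9.05 to 8.23, 7.93, 8.02 and 7.76 (-1.01 ± 0.27, adjusted p = 0.0216), opposite in sign to Ctsd, Ctsb and Ctsz. Lgmn, the lysosomal asparagine endopeptidase, went from 14.47, 14.66, 14.90 and 14.84 to 14.00, 13.65, 14.04 and 14.05 (-0.78 ± 0.22, adjusted p = 0.0294). Neither call held in every fit with a library left out. The adjusted p of Tfeb was at most 0.0889 (lost without 4-month replicate 3, 12-month replicate 2 or 12-month replicate 4) and that of Lgmn at most 0.103 (lost without the same libraries or 4-month replicate 4).

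The promoter of Ctsd is shown because the sequence CACGTG, an E-box at the core of the element that Tfeb and its relatives are known to bind, recurs in it. In the 250 bases before the RefSeq start of Ctsd (chr7:142387828-142388077, GRCm38.p6, minus strand; the matches in capitals begin 245 and 98 bases before the start) the sequence reads:

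Ctsd: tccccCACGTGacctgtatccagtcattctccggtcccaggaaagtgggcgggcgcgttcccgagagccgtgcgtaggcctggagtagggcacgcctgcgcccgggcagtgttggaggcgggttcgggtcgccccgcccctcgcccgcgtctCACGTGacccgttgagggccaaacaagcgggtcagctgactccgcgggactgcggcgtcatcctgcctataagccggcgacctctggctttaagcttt

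An E-box (CACGTG, the same on both strands) was found in this window for 4 of the 10 lysosomal genes that rose and have a RefSeq promoter (40%), for 15 of the 47 lysosomal genes tested (31.9%), and for 6.86% of all 27025 genes with a promoter or 9.82% of those tested here. A match describes the letters alone.

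Phagocytic and complement genes split. Of 40 tested, 8 rose (20%, against 3.39% of all genes tested) and 2 fell (5%, against 3.24%), with a median of 0.15, and 5 of the 8 are DAM genes. Mpeg1, the pore-forming perforin-2, rose from 12.51, 11.78, 11.56 and 11.86 to 13.08, 13.44, 13.19 and 13.12 (1.28 ± 0.23, adjusted p = 0.00103). The genes that fell act in the uptake of apoptotic cells, but Axl, which also acts in that uptake and is on the same list, rose as given above. Megf10, an engulfment receptor that astrocytes also use, went from 8.70, 7.90, 9.17 and 8.13 to 7.29, 6.09, 7.82 and 6.30 (-1.60 ± 0.35, adjusted p = 0.00594), and Mfge8, a secreted phosphatidylserine-binding protein, from 12.02, 12.36, 12.65 and 12.24 to 11.47, 11.29, 11.57 and 11.35 (-0.90 ± 0.27, adjusted p = 0.0428). The Mfge8 call was lost in 6 of the 8 fits that left out 1 library, with an adjusted p of at most 0.124. Both Megf10 and Mfge8 are expressed in astrocytes, and the part of astrocyte RNA in their decrease was not tested.

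Several lipid genes rose. Of 42 genes of cholesterol and lipid handling, 7 rose (16.7%, against 3.39% of all genes tested) and none fell (median 0.21). Of the 7, Apoe, Ch25h, Fabp5, Lpl and Npc2 are also on the DAM list. Apoe, the main lipid carrier of the brain, had values of 15.56, 15.57, 15.66 and 15.93 at 4 months and 17.72, 17.29, 17.76 and 17.52 at 12 months, a 3.71-fold difference (1.89 ± 0.32, adjusted p = 0.000633). Ch25h, which makes the oxysterol 25-hydroxycholesterol, rose from 7.51, 7.59, 6.48 and 7.16 to 9.09, 9.13, 9.41 and 9.04 (1.98 ± 0.32, adjusted p = 0.000567). The fatty acid carriers Fabp3 and Fabp5 rose by 1.59 ± 0.36 (adjusted p = 0.0079) and 1.36 ± 0.33 (adjusted p = 0.0112). The remaining members were lipoprotein lipase, Lpl (1.42 ± 0.35, adjusted p = 0.0129, and 0.054 without 4-month replicate 4), and Srebf1, a transcription factor of lipid synthesis (0.91 ± 0.27, adjusted p = 0.0427, and at most 0.101 with a library left out). Apoe, Ch25h and Fabp5 separated the ages without overlap, as did Fabp3.

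Interferon-stimulated genes rose in part. Of 46 tested, 7 rose (15.2%, against 3.39% of all genes tested) and none fell, 34 had a positive difference, and the median was 0.51. The list means were 8.07, 8.05, 7.89 and 8.29 at 4 months and 8.47, 8.63, 8.37 and 8.68 at 12 months, with no overlap. Without 4-month replicate 3 or without 12-month replicate 2 the list held 4 called genes, and with a spread weight for each group 2. Irf7, the master transcription factor of the interferon response, went from 7.03, 7.13, 6.98 and 7.67 to 8.42, 8.87, 7.98 and 8.79 (1.31 ± 0.29, adjusted p = 0.00549). Its gene overlaps Phrf1 on the opposite strand. Ifi27l2a rose from 9.05, 8.70, 8.54 and 8.96 to 10.22, 10.84, 10.14 and 10.90 (1.71 ± 0.33, adjusted p = 0.00189). The oligoadenylate synthetases, sensors of viral RNA, rose by 1.76 ± 0.44 for Oas1a (adjusted p = 0.0153) and by 1.35 ± 0.32 for Oas1g (adjusted p = 0.00942), but they are close paralogues and their reads may be shared. Ifi207, a nucleic acid sensor family member, rose by 1.34 ± 0.33 (adjusted p = 0.012), Bst2, the virus-tethering protein tetherin, by 0.87 ± 0.22 (adjusted p = 0.0169) and Parp14, an ADP-ribosyltransferase, by 1.08 ± 0.30 (adjusted p = 0.0281). The calls of Oas1a, Ifi207, Bst2 and Parp14 were each lost without at least 1 library, with adjusted p up to 0.0745, 0.051, 0.0671 and 0.0984.

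Promoters of interferon-stimulated genes are shown for the interferon-stimulated response element, searched on both strands as GAAA, any pair of bases and GAAA again (overlapping matches counted). Windows are the 250 bases before the RefSeq start in GRCm38.p6, all on the minus strand: chr5:120907526-120907775 for Oas1a, chr5:120887614-120887863 for Oas1g and chr1:173741810-173742059 for Ifi207. Capitals mark the matches.

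Oas1a: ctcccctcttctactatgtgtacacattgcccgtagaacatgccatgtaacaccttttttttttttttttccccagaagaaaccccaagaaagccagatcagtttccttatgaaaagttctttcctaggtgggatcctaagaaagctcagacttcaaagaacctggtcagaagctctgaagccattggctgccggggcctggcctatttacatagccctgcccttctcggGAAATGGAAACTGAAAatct

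Oas1g: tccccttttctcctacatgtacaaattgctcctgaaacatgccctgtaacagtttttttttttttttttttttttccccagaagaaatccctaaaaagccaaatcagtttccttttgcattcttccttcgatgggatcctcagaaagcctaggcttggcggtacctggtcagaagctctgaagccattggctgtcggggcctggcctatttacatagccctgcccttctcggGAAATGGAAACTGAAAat

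Ifi207: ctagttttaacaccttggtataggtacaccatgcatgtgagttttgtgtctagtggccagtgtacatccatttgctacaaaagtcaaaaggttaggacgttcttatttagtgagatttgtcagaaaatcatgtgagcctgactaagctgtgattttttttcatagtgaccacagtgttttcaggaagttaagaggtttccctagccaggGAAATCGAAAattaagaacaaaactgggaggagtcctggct

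The element was present for 4 of the 5 called interferon-stimulated genes with a RefSeq promoter, for 17 of the 35 tested with one (48.6%), and for 3.46% of all 27025 genes with a promoter. In Oas1a and Oas1g it lay in a stretch shared by the paralogues, with the nearest match beginning 14 and 12 bases before the start, and in Ifi207 it began 41 bases before it. The same window of Irf7 held no such letters.

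Few genes of antigen presentation, cytokines and Toll-like receptor signalling were called. Of 33 antigen presentation genes, 2 rose (6.06%, against 3.39% of all genes tested) and 24 had a positive difference (median 0.31). The list means were 9.83 to 10.21 at 4 months and 10.24 to 10.48 at 12 months, without overlap. B2m, the light chain of MHC class I, rose by 0.97 ± 0.27 (adjusted p = 0.0268) and the heavy chain H2-D1 by 0.93 ± 0.26 (adjusted p = 0.0291). Neither held without 4-month replicate 2, 4-month replicate 3 or 12-month replicate 3 (adjusted p up to 0.0856 and 0.0889). Class I genes are near-identical copies, so the share of H2-D1 is uncertain. Of 40 inflammasome, cytokine and chemokine genes, 3 rose (7.5%) and 2 fell (5%, against 3.24% of all genes tested), with a median of 0.05. Csf1, a growth factor that microglia depend on, rose from 10.12, 10.02, 9.18 and 9.56 to 11.49, 11.94, 11.12 and 11.70, a 3.59-fold difference (1.84 ± 0.31, adjusted p = 0.000612). The chemokine Ccl9 went the other way, from 10.37, 10.69, 10.90 and 10.92 to 9.25, 8.65, 9.45 and 8.75 (-1.69 ± 0.28, adjusted p = 0.000612), and Ccl7 fell by 1.70 ± 0.41 (adjusted p = 0.0112). Cxcl1, a neutrophil chemokine, and Socs6, a cytokine signalling suppressor, rose by 1.11 ± 0.34 and 0.89 ± 0.27 (adjusted p = 0.0461 and 0.043), and each was lost in 6 of the 8 fits with a library left out. The list held 1 higher gene without 4-month replicate 1, 12-month replicate 1, 12-month replicate 2 or 12-month replicate 4. None of 31 Toll-like receptor genes passed; the lowest p belonged to Ly96, a co-receptor of Tlr4 (-0.77 ± 0.25, adjusted p = 0.0581).

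Ribosomal protein genes formed the largest called group among the lists. Of 76 genes of the cytosolic ribosome, 61 rose (80.3%, against 3.39% of all genes tested) and none fell. A positive difference was found for 75, the median was 1.06, and the 61 made up 14.1% of the higher genes. The list means were 10.83, 10.19, 10.25 and 10.32 at 4 months and 11.46, 11.38, 11.61 and 11.34 at 12 months. Every 12-month library thus lay above every 4-month library, with 4-month replicate 1 nearest to them. Rpl14 went from 10.29, 9.90, 9.97 and 10.35 to 11.58, 11.63, 11.68 and 11.31 (1.42 ± 0.22, adjusted p = 0.000391). Rplp1 rose by 1.55 ± 0.28 (adjusted p = 0.00114) and Rpsa by 1.25 ± 0.21 (adjusted p = 0.000718). Of the 61 genes, 44 stayed called in each fit that left out 1 library, and 35 genes of the list were called in a fit of only the 8 libraries. Many ribosomal protein genes have processed pseudogenes, which can share reads with them.

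Part of the ribosomal list has short transcripts, and short transcripts rose more often. Of the 552 tested genes whose longest transcript was under 1000 bases, 12.3% were higher and 3.08% lower, with a median difference of 0.15. Leaving out ribosomal genes, 7.88% of 520 such genes were higher and the median was 0.10. In the longer classes, 2.49 to 4.2% were higher with ribosomal genes and 2.32 to 3.1% without them. Ribosomal genes that rose were also found there: from 1000 to 2000 bases, 84 of 1999 genes were higher, and 61 of 1968 without ribosomal genes. The median over the shortest class was 0.09 for the same ages in WT Ki67+ and 0.21 in APP/PS1 Ki67- cells. The part of transcript length or RNA fragmentation in fixed cells in the ribosomal result was not tested.

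Some genes of energy metabolism rose. Of 60 oxidative phosphorylation genes, 4 rose (6.67%, against 3.39% of all genes tested) and none fell (median 0.19). Cox8a, a subunit of cytochrome c oxidase, went from 10.37, 10.49, 10.42 and 10.00 to 11.23, 11.27, 11.19 and 11.32 (0.93 ± 0.21, adjusted p = 0.00616), and the complex I subunit Ndufa2 rose by 1.06 ± 0.24 (adjusted p = 0.00867). Ndufa1 and Uqcrh, of complexes I and III, rose by 1.20 ± 0.30 and 0.96 ± 0.25 (adjusted p = 0.0145 and 0.0186). Without 4-month replicate 3 or without 12-month replicate 4, 2 of the 4 were called. In glycolysis, 3 of 26 genes rose (11.5%: Pgk1, Gapdh and the hypoxia factor Hif1a, by 0.84 to 0.96). The fructose transporter gene Slc2a5 fell by 0.92 ± 0.23 (adjusted p = 0.0159), which is 3.85% of the list against 3.24% of all genes tested. Without overlap, 10 of the 26 were higher and 5 lower, where 17.1% of all genes tested did not overlap. No glycolytic gene that rose stayed called without 4-month replicate 2, 12-month replicate 2 or 12-month replicate 4.

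**Figure D3:**
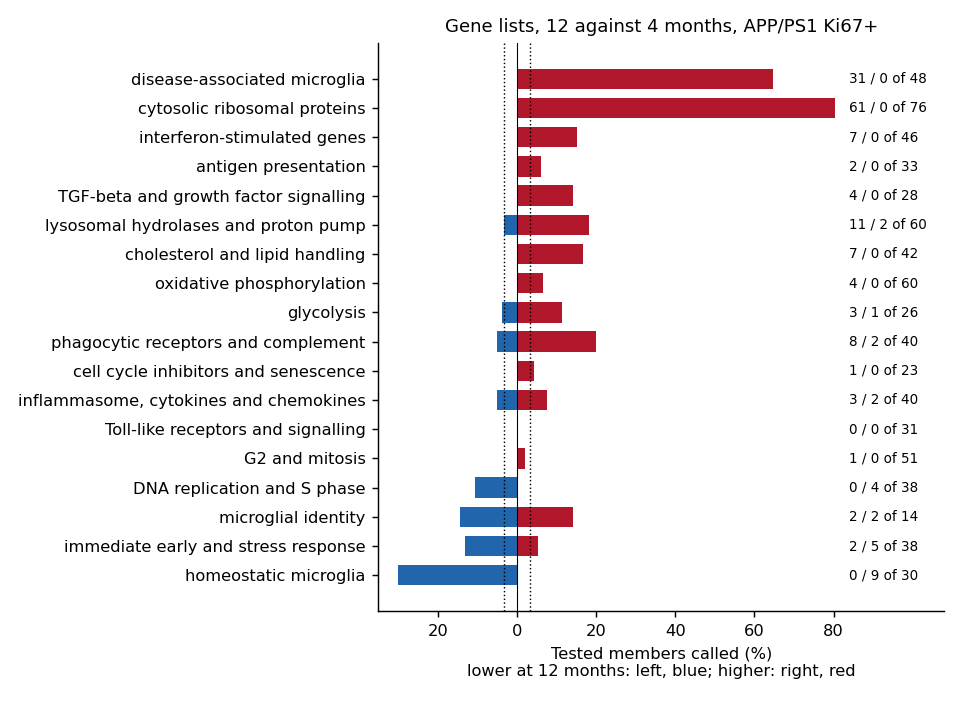
Percent of tested members called higher (red, right) or lower (blue, left) at 12 months for each gene list, with the counts higher / lower of tested at the right and dotted lines at 3.39% and 3.24%, the shares over all genes tested. Ribosomal and DAM lists reach 80.3% and 64.6% higher, and the homeostatic list reaches 30% lower.

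Mitotic genes changed little between the ages in these cells, which were all sorted for Ki67, and some S phase genes fell. Of 38 DNA replication and S phase genes, 4 fell (10.5%, against 3.24% of all genes tested) and none rose (median -0.19). Of 51 genes of G2 and mitosis, 1 rose (1.96%, against 3.39% of all genes tested) and none fell (median -0.10). The S phase list means were 7.95, 7.73, 8 and 7.84 at 4 months and 7.61, 7.64, 7.58 and 7.69 at 12 months, and the G2 and mitosis means 8.39, 8.03, 8.07 and 8.24 against 8.02, 8.12, 8.29 and 8.22. The S phase means did not overlap, while the mitotic means did. Cdc6, which loads the replicative helicase, went from 6.85, 7.63, 8.68 and 6.47 to 6.44, 6.41, 6.29 and 6.24 (-1.06 ± 0.30, adjusted p = 0.0305). Cdc45, a part of that helicase, fell by 1.16 ± 0.35 (adjusted p = 0.0434), and lower values were also called for the ribonucleotide reductase subunit Rrm2 (-1.32 ± 0.41, adjusted p = 0.0469) and the histone mRNA-binding protein Slbp (-0.87 ± 0.26, adjusted p = 0.0428). These calls were fragile, and Cdc6 and Rrm2, with 12-month means below 7, entered the comparison through their 4-month values alone. With every gene in the table kept, or with a filter on any group, 2 S phase genes were called lower. The S phase list held 0 called genes without 12-month replicate 4, 4 without 4-month replicate 4, 2 without 4-month replicate 1 and 1 without any of the others.

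Foxm1, the transcription factor of mitotic genes, was the G2 and mitosis gene that rose, from 7.03, 6.09, 7.17 and 7.10 to 7.64, 8.27, 7.70 and 8.43 (1.16 ± 0.36, adjusted p = 0.0469), and it stayed called in 1 of the 8 fits with a library left out. Cdkn1a, the inhibitor p21, was the only called member of 23 cell cycle inhibitor and senescence genes (4.35% higher, against 3.39% of all genes tested). It rose from 9.86, 9.78, 8.69 and 10.49 to 10.84, 11.43, 10.71 and 11.34 (1.37 ± 0.35, adjusted p = 0.0175). Its call was lost without 4-month replicate 3, 12-month replicate 2 or 12-month replicate 4 (adjusted p up to 0.0882).

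Immediate early and stress genes leaned down. Of 38 tested, 5 fell and 2 rose (median -0.28). Fosb and Fos, subunits of the AP-1 transcription factor, were 11.32, 10.92, 12.06 and 12.24 and 14.63, 15.34, 15.61 and 15.91 at 4 months, and 10.09, 10.17, 9.84 and 10.18 and 14.17, 13.75, 14.00 and 14.24 at 12 months. Neither gene overlapped between the ages, and they fell by 1.56 ± 0.29 (adjusted p = 0.00136) and 1.33 ± 0.29 (adjusted p = 0.00508). Tsc22d3, a leucine zipper protein induced by glucocorticoids, fell by 1.24 ± 0.26 (adjusted p = 0.00385) and was called in each of the 8 fits with a library left out. The phosphatase gene Dusp2 fell by 1.40 ± 0.36 (adjusted p = 0.0174), and its call was lost without 4-month replicate 2, 12-month replicate 2 or 12-month replicate 4 (adjusted p up to 0.0716). Fkbp5, a co-chaperone of the glucocorticoid receptor chosen after its values were seen, fell by 1.04 ± 0.31 (adjusted p = 0.0428) and was called in 2 of the 8 fits (adjusted p up to 0.118). Jund, another AP-1 subunit, and Ddit3, a stress-induced transcription factor, rose by 1.19 ± 0.36 (adjusted p = 0.0447) and 1.28 ± 0.37 (adjusted p = 0.0337). Without 12-month replicate 2 or without 12-month replicate 4, 3 genes of the list were called lower. The call of Jund was lost in each fit with a library left out (adjusted p 0.0512 to 0.126) and that of Ddit3 in 6 of 8.

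Growth factor genes rose where they moved. Of 28 genes of TGF-β and growth factor signalling, 4 rose (14.3%, against 3.39% of all genes tested) and none fell (median 0.29). The 4 were Csf1 and Igf1 as above, the angiogenic factor gene Vegfb (1.09 ± 0.30, adjusted p = 0.0264) and the receptor gene Tgfbr2 (0.69 ± 0.21, adjusted p = 0.0441). Csf1 and Igf1 were called in each fit with a library left out, whereas Vegfb was called in 3 of 8 and Tgfbr2 in 1 of 8. Without 4-month replicate 1, 3 or 4 or 12-month replicate 2 or 4, the list held 2 called genes.

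Strong increases were also found outside the lists. Tcap (chr11:98383811-98384953), a sarcomere protein in muscle, rose 5.43-fold from 7.33, 7.06, 7.05 and 7.89 to 9.42, 9.96, 9.64 and 10.08 (2.44 ± 0.36, adjusted p = 0.000186). Lars2 (chr9:123366927-123462666), the mitochondrial leucyl-tRNA synthetase, rose 5.06-fold from 14.10, 12.73, 13.58 and 13.58 to 15.67, 16.27, 15.38 and 16.01 (2.34 ± 0.34, adjusted p = 0.000174). Hpse (chr5:100679484-100719716), heparanase, which cleaves heparan sulfate in the matrix, rose 4.72-fold from 7.27, 7.13, 6.86 and 6.93 to 9.11, 9.33, 8.94 and 9.76 (2.24 ± 0.32, adjusted p = 0.000164). Myo1e, a class I myosin of membrane and phagocytic dynamics, rose by 2.04 ± 0.29 (adjusted p = 0.000164). For Tcap, Hpse and Myo1e the ages were separated by more than the range within either age. For Lars2 they did not overlap, but the gap was smaller than the range at 4 months.

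Among the lower genes, the largest differences and the lowest adjusted p values were outside the homeostatic list. Thumpd1 (chr7:119715093-119720798), an adaptor for tRNA acetylation, went from 9.28, 8.93, 8.98 and 8.78 to 7.07, 7.18, 7.00 and 6.88, a 3.89-fold lower level (-1.96 ± 0.27, adjusted p = 0.000164). Itih5 (chr2:10153571-10256529), a hyaluronan-binding matrix protein, went from 9.32, 9.59, 9.71 and 9.34 to 7.77, 7.34, 7.98 and 7.25 (-1.91 ± 0.28, adjusted p = 0.000164). Unc13c (chr9:73479422-73968966), a vesicle priming protein of synapses, went from 9.18, 7.98, 8.85 and 7.99 to 6.82, 6.37, 7.27 and 6.39 (-1.79 ± 0.26, adjusted p = 0.000164). Slco4a1 (chr2:180456245-180474867), an organic anion transporter, had the lowest called difference, a 4-fold lower level (SE 0.37 on the log2 scale, adjusted p = 0.00139), with 8.05, 9.43, 9.43 and 9.16 at 4 months and 7.29, 7.23, 6.91 and 6.64 at 12 months. The ages did not overlap for these genes, and 4-month replicate 1 of Slco4a1 lay nearest to the older group.

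Further lower genes covered several functions. Alox5ap, the activating protein of leukotriene synthesis, went from 11.11, 11.38, 11.17 and 10.63 to 9.74, 9.71, 9.91 and 9.76 (-1.29 ± 0.21, adjusted p = 0.000483). Decreases were also called for Eef2k, a kinase that slows translation elongation (-1.52 ± 0.26, adjusted p = 0.000663), and Gpx8, a peroxidase of the endoplasmic reticulum (-1.49 ± 0.25, adjusted p = 0.000602). Bank1, a scaffold of B cell receptor signalling, differed by -1.84 ± 0.38 (adjusted p = 0.00334). Mlf1, Arxes1 and Nat8f1 differed by -1.56 ± 0.24, -1.30 ± 0.21 and -1.82 ± 0.31 (adjusted p = 0.000367, 0.000567 and 0.000663). Genes that were higher in Ki67+ than in Ki67- cells of young WT mice were common among the lower genes. A difference above 1 between these WT groups at 4 months was found for 10.4% of the genes tested, for 25.6% of the lower genes (106) and for 6.22% of the higher genes (27). Astrocyte markers were likewise higher in Ki67+ than in Ki67- libraries of APP/PS1 mice, and their part in the lower genes was not tested.

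The astrocyte markers themselves were uneven. Gja1, the gap junction protein connexin 43, fell from 11.51, 10.51, 11.21 and 11.28 to 9.71, 9.56, 10.27 and 9.06 (-1.48 ± 0.29, adjusted p = 0.00217). Aldoc (-1.06 ± 0.35, adjusted p = 0.062), Sparcl1 (-0.79 ± 0.26, adjusted p = 0.0617) and Aldh1l1 (-0.83 ± 0.29, adjusted p = 0.0789) did not pass although their values did not overlap between the ages. Gfap, the intermediate filament of reactive astrocytes, went the other way from 7.62, 9.46, 8.74 and 10.36 to 10.21, 10.37, 10.01 and 10.54 (1.24 ± 0.37, adjusted p = 0.0399), with overlap, and was called in 3 of the 8 fits with a library left out. Of the other markers, the neuronal genes Syt1 and Snap25 (1.46 each, adjusted p = 0.00328 and 0.027) and the oligodendrocyte precursor gene Cspg4 (2.03 ± 0.34, adjusted p = 0.000612) rose, and the mural cell gene Pdgfrb fell by 1.11 ± 0.31 (adjusted p = 0.0295). Pdgfrb was called in 4 and Snap25 in 3 of the 8 fits with a library left out. Syt1 and Snap25 overlapped through 4-month replicate 2, whose neuronal mean of 8.30 was the highest of the 8 libraries.

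**Figure D4:**
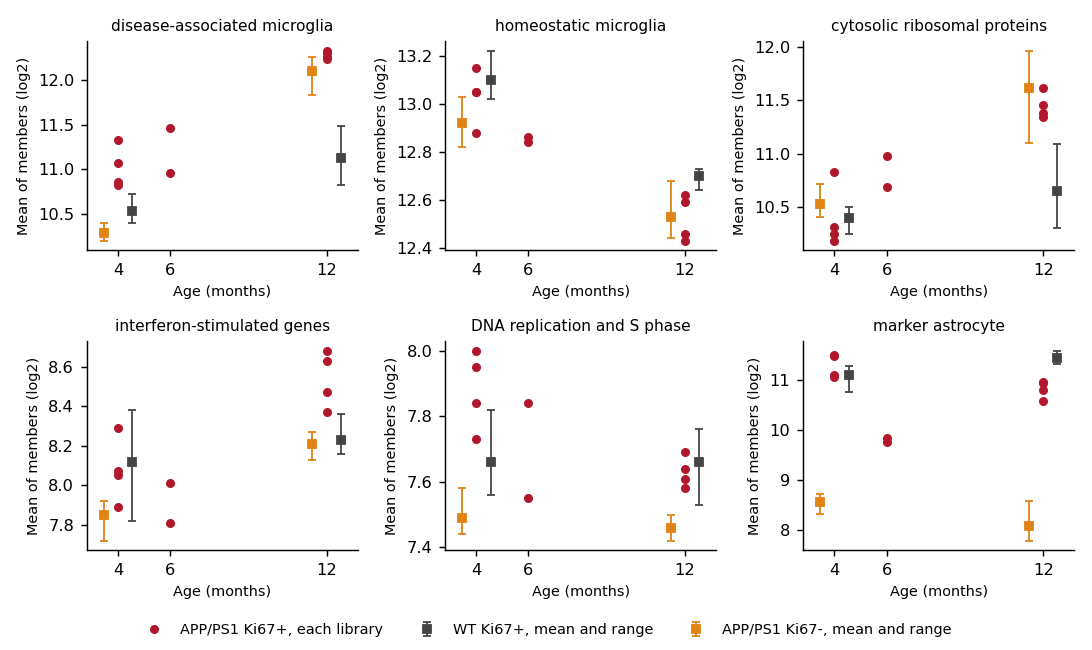
Mean normalised value over the members of 6 gene lists (y axis, log2) against age (x axis, months), with each APP/PS1 Ki67+ library as a red point and the mean and range of WT Ki67+ (dark squares) and APP/PS1 Ki67- libraries (orange squares) at 4 and 12 months. DAM, ribosomal and interferon means lie higher and homeostatic means lower at 12 than at 4 months in APP/PS1 Ki67+ libraries, and the astrocyte mean of the Ki67- libraries lies far below that of the Ki67+ libraries.

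Next, the change with age was compared with that of WT Ki67+ cells by testing the difference of the 2 changes. In WT Ki67+ cells, 26 genes were higher (0.203%) and 29 lower (0.227%) at 12 than at 4 months. The change was more positive in APP/PS1 for 58 genes (0.454%) and more negative for 70 (0.548%). DAM genes changed by a median of 1.22 in APP/PS1 and 0.43 in WT, where 5 of 48 were called higher, Cst7 among them. The test of the difference was passed by 3 of 48, Dkk2, Lilrb4a and Mamdc2. WT libraries went from list means of 10.40 to 10.72 at 4 months to 10.83 to 11.49 at 12 months, so they also moved, but over a shorter distance. Lilrb4a did not move in WT (-0.01) and its changes differed by 2.29 (adjusted p = 0.0128). Mamdc2 changed by 0.16 in WT (difference 2.10, adjusted p = 0.0261) and Dkk2 by 0.45 (difference 1.18, adjusted p = 0.0445). Cst7, in contrast, rose by 2.74 in WT (adjusted p = 0.00671), and the changes differed by -0.01 (adjusted p = 0.998).

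Other lists behaved as follows in this test. Ribosomal genes changed by a median of 0.26 in WT with none called, and Rpsa alone of 76 passed (difference 1.21, adjusted p = 0.041). Interferon-stimulated genes changed by 0.11 in WT, again with none called, and Irf7 alone of 46 passed, with a change of -0.36 in WT that was not called (difference 1.68, adjusted p = 0.0365). Homeostatic genes changed by -0.30 in WT with 2 called lower (P2ry12 and P2ry13), and no member passed the test of the difference. P2ry12 had the same change in both genotypes (-0.99 in each). Mpeg1 (difference 1.27, adjusted p = 0.043), Foxm1 (2.02, adjusted p = 0.041), Myo1e (1.61, adjusted p = 0.0434) and Cxcl1 (1.91, adjusted p = 0.0422) were more positive in APP/PS1. Of these calls, Lilrb4a held in all 17 fits that left out 1 library and Mamdc2 in 15, whereas Irf7 held in 6, Cxcl1 in 5, Mpeg1 and Foxm1 in 4, Rpsa and Myo1e in 3 and Dkk2 in 2.

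Thumpd1, Shisa9, Tsc22d3 and Zfp462 had the lowest adjusted p among the genes more negative in APP/PS1. Thumpd1 changed by 0.43 in WT, so that the changes differed by -2.39 (adjusted p = 0.00329). Tsc22d3 changed by 0.96 in WT (difference -2.20, adjusted p = 0.00329), and Fkbp5 rose in WT by 1.49 (adjusted p = 0.0173; difference -2.52, adjusted p = 0.00411). Shisa9, an auxiliary protein of glutamate receptors, and Zfp462, a zinc finger protein, differed by -2.50 and -1.90 (adjusted p = 0.00329 each). Unc13c, Itih5, Arxes1, Ccl9 and Eef2k differed by -2.11, -2.02, -1.59, -1.93 and -1.58 (adjusted p = 0.00411, 0.0116, 0.0107, 0.0169 and 0.0319), and Mlf1 and Alox5ap by -1.34 and -1.12 (adjusted p = 0.043 and 0.0467). Gja1, Pdgfrb and Megf10, genes of astrocytes and mural cells, differed in the same direction, by -1.59, -1.94 and -1.90 (adjusted p = 0.0443, 0.0289 and 0.0496). Over 12 astrocyte markers the median change was 0.22 in WT and -0.65 in APP/PS1, and the part of astrocyte RNA in the more negative genes was not tested. With 1 of the 17 libraries left out, the calls of Thumpd1, Shisa9, Tsc22d3, Zfp462, Fkbp5, Unc13c, Itih5, Arxes1 and Ccl9 held each time. With only the libraries compared, 5 genes passed, of which Thumpd1, Tsc22d3, Fkbp5 and Itih5 are named here, and Shisa9 and Zfp462 did not. With 1 library left out, Eef2k and Pdgfrb held in 11 fits, those of Mlf1 and Gja1 in 3 and those of Alox5ap and Megf10 in 2.

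Beside Lilrb4a, the genes more positive in APP/PS1 with the lowest adjusted p were Ephx4, Cdh26, Triqk and Map6d1. Ephx4, an epoxide hydrolase family member, changed by -0.48 in WT and 1.28 in APP/PS1 (difference 1.75, adjusted p = 0.0123), and Cdh26, a cadherin, by -1.01 and 0.81 (difference 1.82, adjusted p = 0.0123). Triqk and Map6d1 had differences of 1.84 and 2.67 (adjusted p = 0.0128 and 0.017). For Triqk and Map6d1 the APP/PS1 change alone did not pass (0.52 and 1.15). The counts of 58 and 70 rested on the WT libraries as well: without WT 12-month replicate 3 they were 11 and 20, without WT 12-month replicate 1 they were 13 and 22, and without WT 12-month replicate 2 they were 12 and 24. Without APP/PS1 12-month replicate 2 they were 12 and 22, without APP/PS1 12-month replicate 4 they were 14 and 23 and without APP/PS1 4-month replicate 3 they were 19 and 32.

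**Figure D5:**
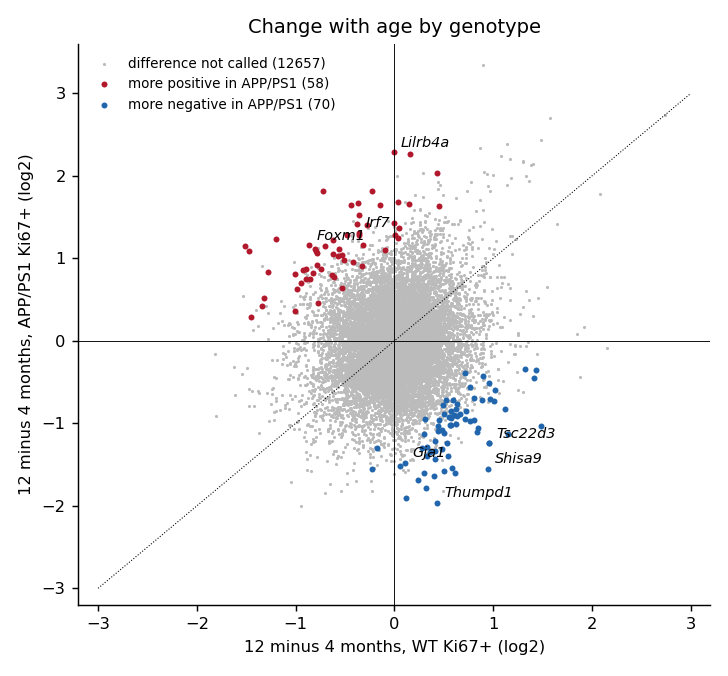
Difference between 12 and 4 months in WT Ki67+ (x axis, log2) and in APP/PS1 Ki67+ microglia (y axis, log2) for each gene tested, with genes more positive in APP/PS1 in red (58), genes more negative in blue (70) and a dotted line where the changes are equal. Lilrb4a lies near 0 on the WT axis and Cst7, at 2.74 and 2.73, lies on the line.

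Finally, the change was compared with that of APP/PS1 Ki67- cells of the same ages, where 383 genes were higher (3%) and 214 lower (1.67%). No gene passed the test of the difference between Ki67+ and Ki67- changes in limma (0%), with 1045 genes at an unadjusted p below 0.05 and a lowest adjusted p of 0.179. Keeping every gene in the table, 1 gene passed (the unnamed gene model 4930474N09Rik, positive), and with 30 instead of 20 residual degrees of freedom 106 passed in each direction. Of the 434 higher genes, 191 were also called higher among the 383 in Ki67- cells, and of the 414 lower genes 54 were also among the 214. The Ki67- change had a median of 0.78 over the higher and -0.43 over the lower genes.

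The gene groups ran side by side in the Ki67- cells. The DAM list held 38 higher genes of 48 there (median 1.57), the ribosomal list 62 of 76 (1.13), the oxidative phosphorylation list 10 of 60 (0.52), the lysosomal list 11 of 60 (0.35) and the interferon list 6 higher and 1 lower of 46 (0.28). DAM means in Ki67- libraries went from 10.20 to 10.40 at 4 months to 11.83 to 12.26 at 12 months, so the younger Ki67- libraries lay below the younger Ki67+ libraries. Apoe rose by 3.98 in Ki67- (adjusted p = 3.63e-09) and by 1.89 in Ki67+ cells, and Cst7 by 4.44 (adjusted p = 1.66e-06) and 2.73. The homeostatic list held 4 lower genes (Tmem119, Glul, Cd164 and Entpd1; median -0.34), with Tmem119 at -1.29 (adjusted p = 0.000783). Thumpd1, Unc13c and Itih5 changed by -0.25, -0.33 and 0.03 in Ki67- cells, with no call.

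The 6-month APP/PS1 Ki67+ group had 2 libraries, which stood apart: their oligodendrocyte marker means were 11.16 and 11.91, against 7.86 to 8.91 at the other ages, and their Mki67 values 8.23 and 6.96. Their group mean was nearer to the 12-month than to the 4-month mean for 199 of the 434 higher and 258 of the 414 lower genes. It lay above the 12-month mean for 58 of the higher genes and below it for 150 of the lower genes. It lay below the 4-month mean for 77 of the higher genes and above it for 53 of the lower genes. The DAM means at 6 months were 11.46 and 10.96, next to the 4-month libraries, and the homeostatic means 12.86 and 12.84, between the ages. No test was made on these libraries.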

How the data were processed

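RNA from fixed, sorted Ki67+ and Ki67- microglia was sequenced by the authors as full-length cDNA in Nextera libraries, which mark no strand. Per the labels and the study's methods, bcl2fastq 2.20, kallisto 0.43.1 on GRCm38 and DESeq2 gave normalised values. The authors deposited 1 table of scores on a log2 scale (3.07 to 18.3), from which 10 surrogate variables had been removed, so depth per library cannot be read and no count test was made.

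Here limma 3.58.1 (R 4.3.3) was fitted on all 42 libraries as 12 group means of genotype, age and Ki67 state. Deviations from the group means had 20 of 30 degrees of freedom left, and 20 were used. Standard errors ignore that removed directions may correlate with groups. The threshold was an adjusted p (Benjamini-Hochberg, 12785 genes) of 0.05. Scripts were tested on simulated data.

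Genes named are Mki67, up to 12 genes per direction with the lowest p and up to 6 with the largest difference, the 5 members with the lowest p in each list, and the 5 genes per direction in each test of a difference, among called genes with values that do not overlap where the age comparison is concerned. Beyond the rule, Tfeb, Lgmn, Megf10, Mfge8, Jund, Fkbp5, Bst2, Parp14, Lpl, Srebf1, Clec7a, Spp1, Sall1 and Gh were chosen after their values were seen. Members and lists were chosen with earlier results of these data known, and Tfeb-related and interferon motifs likewise.

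Gene positions are from GENCODE M21 (GRCm38), and promoters from RefSeq (GRCm38.p6). A transcript length was found for 12605 of 12785 genes. Alternatives were other filters, other spread estimates, median centring, leaving out each library and, added after the data were seen, leaving out the 6-month libraries. Figures were drawn with matplotlib 3.10.9. Some genes that the rule names are not reported here.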

Additional observations from a re-analysis of the deposited data

Results flagged for a closer look

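Among groups of 4 libraries, a value was set apart where its gap to the nearest other library, divided by the range, exceeded Dixon's 95% critical value for 4 samples, which chance passes in about 1 of 20 groups. Of 290 values tested (gene values and list means in either age group), 18 were. At 4 months these were Oas1a in replicate 3 (6.38, against 7.68 to 7.90 in the others), Foxm1 in replicate 2 (6.09), Rplp1 in replicate 1 (11.95), Parp14 in replicate 1 (9.62) and the antigen presentation mean in replicate 3 (9.83). At 12 months, replicate 4 stood apart for Spi1 (10.05), H2-Q7 (10.95), Myd88 (8.03), Cdc25b (9.27), Fabp3 (9.18) and Snap25 (7.85). Replicate 2 stood apart for Npc2 (13.63), Vegfb (9.07), Syt1 (8.02), Lgmn (13.65) and the lipid handling mean (9.35), replicate 1 for Socs6 (9.48) and replicate 3 for Rrm2 (7.33).

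The test of the difference between the APP/PS1 and WT changes with age passed for further values, all log2 differences of changes in Ki67+ cells. More positive in APP/PS1 were Map6d1 (2.67), Lilrb4a (2.29), Mamdc2 (2.10), Foxm1 (2.02), Cxcl1 (1.91), Triqk (1.84), Cdh26 (1.82), Ephx4 (1.75), Irf7 (1.68), Myo1e (1.61), Mpeg1 (1.27), Rpsa (1.21) and Dkk2 (1.18). More negative were Fkbp5 (-2.52), Shisa9 (-2.50), Thumpd1 (-2.39), Tsc22d3 (-2.20), Unc13c (-2.11), Itih5 (-2.02), Pdgfrb (-1.94), Ccl9 (-1.93), Megf10 (-1.90), Zfp462 (-1.90), Arxes1 (-1.59), Gja1 (-1.59), Eef2k (-1.58), Mlf1 (-1.34) and Alox5ap (-1.12).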

How the results depend on the processing

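No paired analysis was possible because the labels carry no replicate numbers. The counts of 434 higher and 414 lower genes stayed within 1.5 times with all genes kept, with a filter on any group, with a trended robust prior, with medians subtracted (500 and 318) and without the 6-month libraries (409 and 354, an alternative chosen after seeing the data). They were 214 and 147 with only the 8 libraries, 206 and 138 with a spread weight for each group, and 1215 and 1212 with 30 instead of 20 residual degrees of freedom. With 1 library left out they ranged from 241 to 456 and from 161 to 423, and 181 of the higher and 119 of the lower genes were called each time. For the difference from WT (58 positive, 70 negative), the counts were 122 and 136 with all genes, 95 and 106 with a filter on any group, 0 and 5 with only the libraries compared (Thumpd1, Fam20a, Fkbp5, Itih5 and Tsc22d3), 595 and 624 with 30 degrees of freedom, 27 and 37 without 6 months, and 11 to 78 and 20 to 89 with 1 library left out. With only the libraries compared, limma gave 1935 genes at an unadjusted p below 0.05. For the difference from Ki67- cells (0 and 0), 1 gene was positive with all genes, 106 and 106 with 30 degrees of freedom, and 0 to 1 in each direction with 1 library left out. With only the 8 libraries, no gene was called in the antigen presentation, S phase, G2 and mitosis, oxidative phosphorylation or glycolysis lists, and the lysosomal list held 5 higher and 0 lower genes. No named gene changed direction under these alternatives. Of 61 higher and 36 lower named genes, 37 and 23 were called with each library left out, 37 and 23 with spread weights, and 39 and 22 with only the 8 libraries. Depth is unknown, so what it limits cannot be given.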

Other observations

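Gh, growth hormone, had the largest difference of all genes tested without being called (3.35 ± 1.23, adjusted p = 0.0964). Its values were 5.75, 5.77, 6.31 and 6.15 at 4 months and 9.31, 9.07, 6.98 and 12.03 at 12 months, so that the ages did not overlap but the older libraries were widely spread. The 6-month libraries had 10.68 and 8.99. It changed by 0.90 in WT Ki67+ (adjusted p = 0.825) and by 4.54 in APP/PS1 Ki67- cells (adjusted p = 0.0269).

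The spread between libraries was unequal between groups. The median SD over genes was 0.386 in the 4-month and 0.268 in the 12-month APP/PS1 Ki67+ group, and over all groups it ran from 0.0328, in WT Ki67- cells at 12 months (3 libraries), to 0.391, in APP/PS1 Ki67- cells at 12 months.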
